A study of Mus musculus with 120 samples.

Results

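Fatty acid oxidation and ketogenesis are represented here by 7 listed genes of mouse liver, chosen by name: Cpt1a, Cpt2, Angptl4, Pdk4, Bdh1, Acadl and Acadm. Of these 7 genes, 6 had a row in the tables, out of 12252 genes in all, and they comprised 19 of 41105 transcripts. Pdk4, a kinase that switches off pyruvate dehydrogenase (GRCm38 chromosome 6, 5483351 to 5496309, minus strand), was not analysed here. The 6 remaining genes were followed in 5 RNA populations of the liver: nuclear total RNA (NT), nuclear poly(A) RNA (NA), cytoplasmic total RNA (CT), cytoplasmic poly(A) RNA (CA) and total RNA of unfractionated tissue (UT). Each population was counted on pre-mRNA (suffix I, sequences with introns and exons) and on mRNA (suffix E, exons only). A read within an exon can fit either kind, so pre-mRNA counts need not come from intron reads alone. In these terms NTI is nuclear total pre-mRNA, NAE nuclear poly(A) mRNA, CAE cytoplasmic poly(A) mRNA and UTE unfractionated mRNA. Livers came from C57BL/6 WT mice (J substrain, male, 8 to 12 weeks old) and from mice labelled Cry1-/- Cry2-/- (CryKO), with both copies of the cryptochromes, repressors of the circadian clock, targeted. Each genotype was sampled every 4 h at 6 Zeitgeber times (ZT0 is lights on, ZT12 lights off) with 2 livers per time, which gave 12 libraries per population and genotype and 120 libraries in all. The WT mice were in a 12:12 light-dark cycle and had food only in the dark phase, from 3 days before sampling. Age, sex and feeding of the CryKO mice were not given in the sources used here.

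In fasting, the liver burns fatty acids in mitochondria and turns the acetyl-CoA that results into ketone bodies for export. Long-chain acyl groups enter through the carnitine shuttle: CPT1A, in the outer membrane, makes acylcarnitine and is the step that malonyl-CoA inhibits, and CPT2, in the inner membrane, turns it back into acyl-CoA. The acyl-CoA dehydrogenases ACADL (long chain) and ACADM (medium chain) carry out the first reaction of each round of β-oxidation. In the ketone pathway, BDH1 interconverts acetoacetate and β-hydroxybutyrate. ANGPTL4 is a secreted inhibitor of lipoprotein lipase. Several of these genes are textbook targets of the fatty acid receptor PPARA.

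The depth of a library, as the sum of its counts in units of M (mega), was 31.8 to 46.7 M in NT, 43.4 to 62.48 M in NA, 7.07 to 23.33 M in CT, 17.42 to 26.68 M in CA and 26.69 to 42.8 M in UT. Pre-mRNA took 71.99 to 78.74% of the counts in NT of WT and 0.92 to 1.69% in CA of WT. In UT of CryKO 1 library was low in pre-mRNA: the first of ZT20 held 14.43%, and the others 27.01 to 33.84%. This library was kept, and its effect on UTI was not tested. The targeted genes were checked first. Cry2 mRNA was 11.01 to 28.7 CPM (counts per M mRNA counts, normalised) in CAE of WT and 6.45 to 10.6 in CryKO, with no overlap, and Cry1 mRNA was 3.63 to 30.3 in WT and 3.69 to 6.23 in CryKO. In the nucleus the order was the opposite, with Cry1 pre-mRNA at 60.8 to 497 CPM in NTI of WT and 555 to 970 in CryKO. Which exons the alleles lack was not given in the sources used here, so counts over the whole gene check the labels in part. Hepatocyte markers (6 of 6 with a row, among them Alb and Ttr) summed to a median of 78979 CPM in UTE of WT and 81676 in CryKO. 1 liver stood apart in the cytoplasm: at ZT0 in WT, Nr1d1 mRNA (a clock gene that is near its lowest level at lights on) was 0.708 CPM in CAE of replicate 1 and 25.98 in replicate 2, whereas UTE gave 6.96 and 2.77. Whether the cytoplasmic libraries of this replicate 2 are of the same mouse as its other libraries could not be settled. Where leaving this liver out started or ended a call of a member in CAE or CTE, or moved a value of Angptl4 by over 0.25, the value without it is also given. Genotype cannot be told apart from whatever else differed between the WT and the CryKO libraries, and in bulk tissue a lower level can mean fewer cells of a type or less RNA per cell, which cannot be told apart either.

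Cpt1a lies on GRCm38 chromosome 19, 3322334 to 3385733, plus strand, Cpt2 on chromosome 4, 107903981 to 107923610, minus strand, and Angptl4 on chromosome 17, 33773750 to 33781830, minus strand. Bdh1 lies on chromosome 16, 31422280 to 31458901, plus strand, Acadl on chromosome 1, 66830839 to 66863277, minus strand, and Acadm on chromosome 3, 153922357 to 153944632, minus strand. All locations are those of the whole gene, with exons, introns and UTRs. Per length, in RPKM (CPM per kilobase of transcript), the order of levels in UTE of WT was Acadm with 159 ± 22.8 (SD, n = 12), Cpt1a with 101.3 ± 44.4, Bdh1 with 84.8 ± 29.96, Acadl with 83.1 ± 15.3, Cpt2 with 51.6 ± 6.93 and Angptl4 with 23.1 ± 17.6. The ranges of any neighbours in this order overlapped. In CAE the order was different, since Acadm came first again, with 115.8 RPKM, but Cpt1a, with 42.6, came last but one, above Angptl4 with 20.7.

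Cpt1a was the member with a daily rhythm that passed the test. In CAE of WT, Cpt1a was 135 and 95.6 CPM at ZT0, 123 and 118.4 at ZT4, 252 and 231 at ZT8, 370 and 255 at ZT12, 215 and 181 at ZT16 and 111.9 and 118.4 at ZT20. The 4 libraries of ZT8 and ZT12 were the highest, and every library of the other times lay below them. A 24 h cosine fitted to the 12 libraries peaked at ZT 11.5 ± 0.5 h (SE), with a log2 difference from trough to peak of 1.55 ± 0.22, which is 2.94-fold (adjusted p = 0.00511, edgeR quasi-likelihood test with Benjamini-Hochberg adjustment over 11307 genes). Of all genes tested in CAE of WT, 2.91% passed this test, and of the 6 members 1 did. The call held when any 1 of the 12 libraries was left out (adjusted p from 0.00273 to 0.0228), but not when the 6 times were fitted as a factor in place of a cosine, a fit that called 70 genes against 329.

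The same profile was present in UTE. There, Cpt1a was 288 and 273 CPM at ZT0, 266 and 335 at ZT4, 549 and 653 at ZT8, 876 and 572 at ZT12, 465 and 392 at ZT16 and 295 and 284 at ZT20. The lowest of the ZT8 and ZT12 libraries, at 549, was above the highest of all other times, at 465. The fitted peak was at ZT 11.1 ± 0.5 h and the log2 difference from trough to peak 1.46 ± 0.19 (2.75-fold, adjusted p = 0.00207 by edgeR), among 10.7% of genes called in UTE. CTE gave 1.43 ± 0.21 with a peak at ZT 11.3 ± 0.5 h (adjusted p = 0.00368 by edgeR), among 11.1% of genes called.

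Cpt1a pre-mRNA was high earlier in the day. In NTI of WT, it was 417 and 408 CPM at ZT0, 1205 and 1981 at ZT4, 1322 and 1668 at ZT8, 1855 and 1238 at ZT12, 810 and 474 at ZT16 and 974 and 969 at ZT20. All 6 libraries of ZT4, ZT8 and ZT12 were above all 6 of the other times, so nuclear pre-mRNA was already high at ZT4, when CAE was still at 123 and 118.4. In NAE, Cpt1a was 299 and 599 CPM at ZT4 against 157 and 134 at ZT0, and 632 and 422 at ZT12. The fitted peaks were at ZT 8.6 ± 1.3 h in NTI and ZT 9.1 ± 1.2 h in NAE, with log2 differences of 1.35 ± 0.47 and 1.41 ± 0.46. Neither passed the test after adjustment (adjusted p = 0.393 in NTI and 0.218 in NAE, by edgeR), where 0.563% and 2.25% of genes were called. The difference between the peak times of nuclear and cytoplasmic Cpt1a was not tested.

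**Figure D1:**
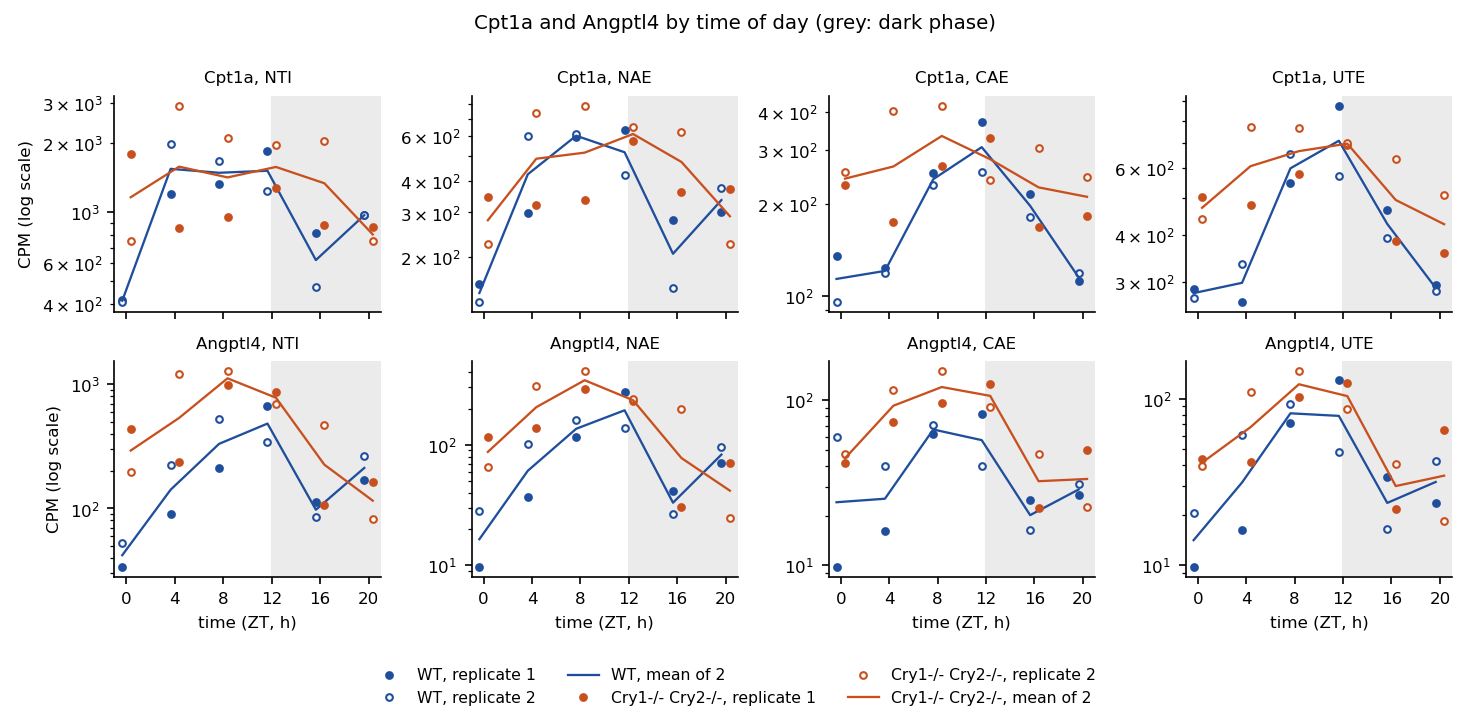
Normalised CPM (log scale) of Cpt1a and Angptl4 against Zeitgeber time in NTI, NAE, CAE and UTE, with WT and CryKO in separate colours, 1 point per library, lines through the mean of the 2 libraries of a time and the dark phase in grey. Cpt1a in CAE of WT is highest at ZT12, at 370 and 255 CPM, and in NTI it is already at 1205 and 1981 at ZT4.

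In UTE of WT, Angptl4 had the widest swing of the members, and also the largest SE. It was 9.74 and 20.6 CPM at ZT0, 16.3 and 60.5 at ZT4, 71.4 and 93.3 at ZT8, 129 and 48.1 at ZT12, 33.8 and 16.6 at ZT16 and 23.8 and 42.04 at ZT20. ZT8 and ZT12 were the highest times here too, but the 2 livers of ZT4 and of ZT12 were far apart. The log2 difference from trough to peak was 2.13 ± 0.59 (4.37-fold) with a peak at ZT 10.2 ± 1.1 h (adjusted p = 0.0699 by edgeR). The nuclear populations gave 2.31 in NTI (adjusted p = 0.348) and 2.18 in NAE (adjusted p = 0.257), with peaks at ZT 11.4 and ZT 11.1. In CAE, where it was 1.24 (adjusted p = 0.359), the second liver of ZT0, the one that stood apart, held 59.7 CPM of Angptl4 against 9.72 in the first. Without it the difference was 1.84 (adjusted p = 0.12), and CTE went from 1.26 (adjusted p = 0.28) to 1.75 (adjusted p = 0.112).

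The remaining 4 genes did not pass the test for a rhythm. Bdh1 was 43.8 to 204 CPM in CAE of WT, with the 4 libraries of ZT8 and ZT12 at 174, 204, 147 and 156, but the 2 livers of ZT4 were at 43.8 and 152. Its log2 difference from trough to peak was 0.99 in CAE (adjusted p = 0.262) and 0.86 in UTE (adjusted p = 0.144). Without the first WT liver of ZT4, Bdh1 passed the test in CAE (adjusted p = 0.0118) and in UTE (adjusted p = 0.0332). Acadl, Cpt2 and Acadm had smaller differences, with 0.35, 0.26 and 0.31 in UTE of WT (adjusted p of 0.352, 0.347 and 0.251 by edgeR). Over all 8 kinds of RNA tested in WT, the log2 difference was 0.12 to 0.48 for Cpt2, 0.34 to 0.79 for Acadl and 0.25 to 0.48 for Acadm. The 3 kinds not described singly called no member either, among 2.07% of genes in NTE, 0.896% in NAI and 1.19% in UTI.

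**Figure D2:**
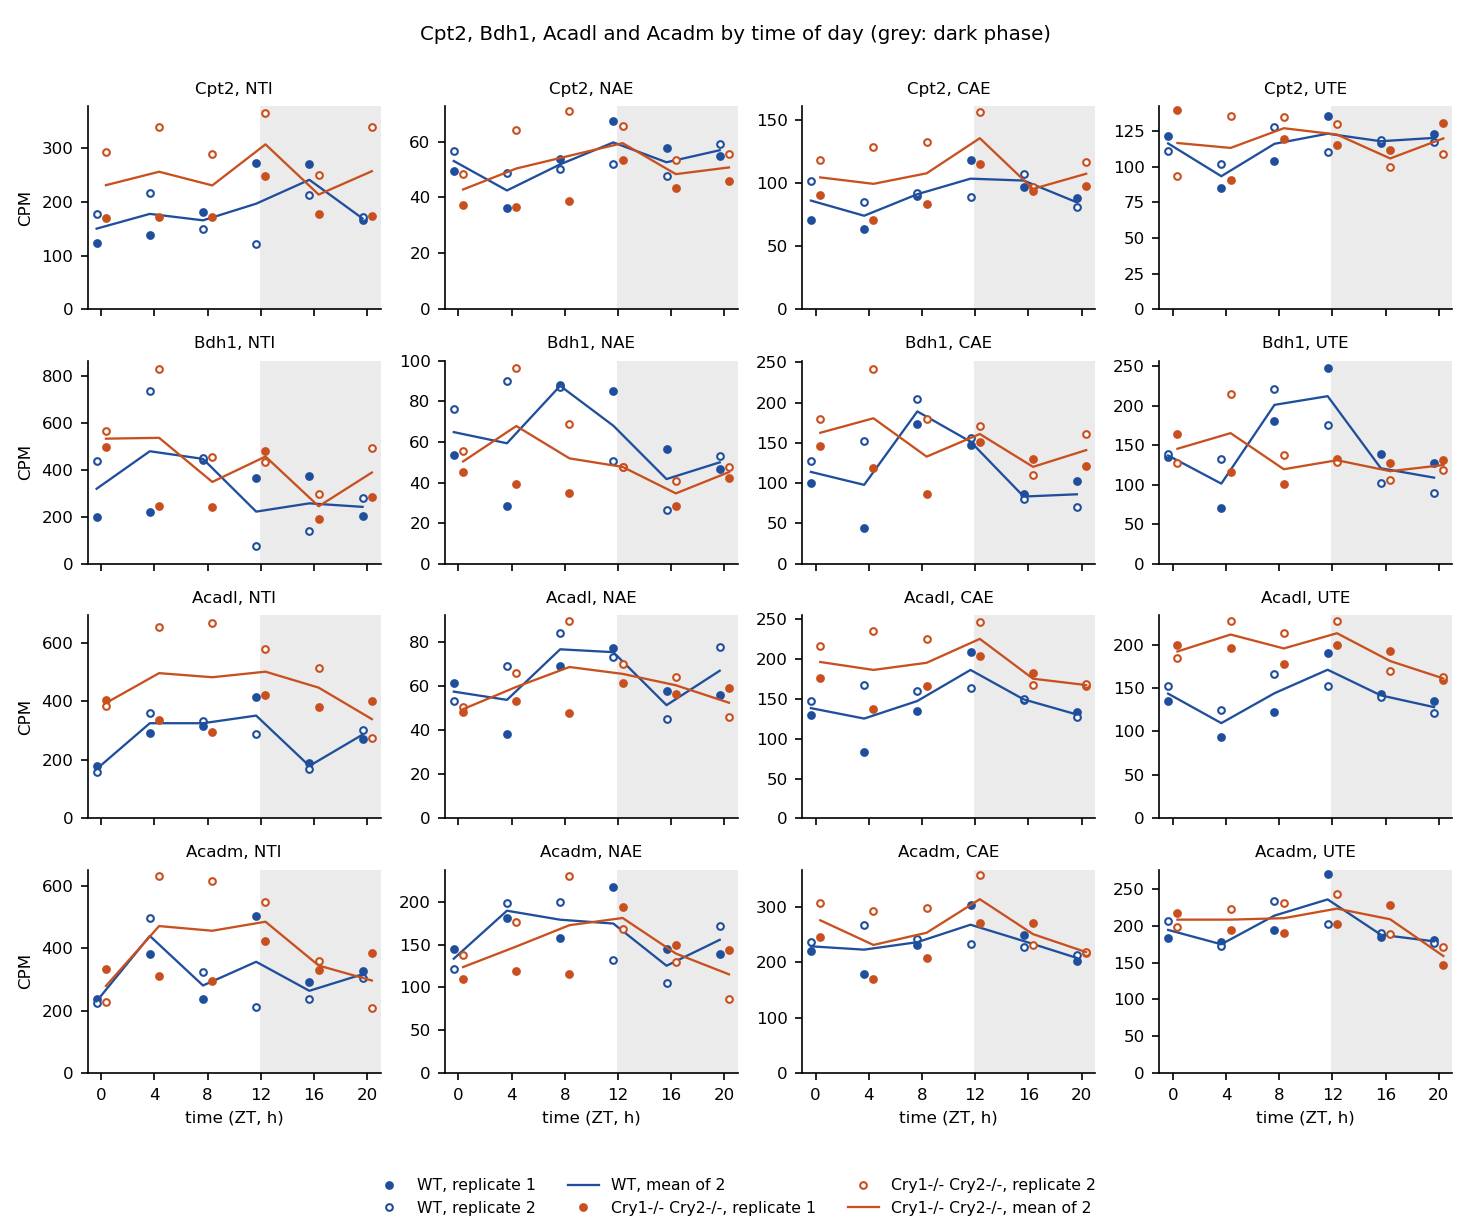
Normalised CPM (linear axis from 0) of Cpt2, Bdh1, Acadl and Acadm against Zeitgeber time in NTI, NAE, CAE and UTE, with WT and CryKO in separate colours, 1 point per library, lines through the mean of the 2 libraries of a time and the dark phase in grey. Acadl in UTE is 159 to 227 CPM in CryKO and 94.2 to 190 in WT, and none of the 4 genes passed the test for a rhythm.

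In CryKO no member passed the test for a rhythm. The background was low there as well, with 0.027% of genes called in NTI, 0.0169% in NAE, 0.0512% in UTE and 0 of 11338 genes in CAE by edgeR (0.0%), where DESeq2 called 67 and 734 genes had an unadjusted p under 0.05 in edgeR. Angptl4 nevertheless had wide log2 differences from trough to peak, with 2.99 in NTI, 2.68 in NAE and 1.87 in UTE. In CAE of CryKO it was 41.6 and 47.5 CPM at ZT0, 74.1 and 115.8 at ZT4, 96.4 and 150 at ZT8, 125 and 90.4 at ZT12, 22.2 and 47.03 at ZT16 and 49.6 and 22.4 at ZT20. All 6 libraries of ZT4, ZT8 and ZT12 were above all 6 of the other times. The log2 difference was 2.08 ± 0.34 (4.23-fold) with a peak at ZT 7.9 ± 0.6 h (adjusted p = 0.203 by edgeR), and DESeq2 called Angptl4 in NTI, NAE, CAE and UTE of CryKO. Cpt1a had a log2 difference of 0.85 ± 0.51 in NTI of CryKO (adjusted p = 0.742), 1.16 ± 0.38 in NAE (adjusted p = 0.381), 0.63 ± 0.30 in CAE (adjusted p = 0.828) and 0.73 ± 0.22 in UTE (adjusted p = 0.315).

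The difference in rhythm between genotypes was tested itself. No member passed, against 0.359% of genes in NTI, 0.7% in NAE, 0.725% in CAE and 1.88% in UTE. The lowest values were those of Cpt1a, with an adjusted p of 0.228 in CAE and 0.194 in UTE, and of Bdh1 in UTE, with 0.308. The loss of the call for Cpt1a in CryKO is therefore not shown to be a difference between the genotypes.

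A second comparison split the WT livers by food: ZT4, ZT8 and ZT12 followed 4 to 12 h without food, and ZT16, ZT20 and ZT0 followed 4 to 12 h with food. Light, food and time of day changed together in this design and cannot be told apart. Cpt1a and Angptl4 were higher in the food-free phase. In NAE, Cpt1a was 299 to 632 CPM in the food-free phase and 134 to 374 in the food phase. The ranges overlapped, but the log2 difference was 1.25 ± 0.28 (2.37-fold, adjusted p = 0.0193). Angptl4 in NAE was 36.7 to 273 CPM food-free and 9.65 to 96.5 with food, a log2 difference of 1.72 ± 0.44 (3.3-fold, adjusted p = 0.0353). These 2 members were called among 5.2% of all genes in NAE (2.42% higher food-free, edgeR over 11850 genes).

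In UTE, Cpt1a differed by 0.64 ± 0.16 (1.56-fold, adjusted p = 0.0273) and Angptl4 by 1.49 ± 0.41 (2.81-fold, adjusted p = 0.0412), among 6.36% of genes called (3.51% higher food-free). In NTI, where 3.23% of genes were called and no member was, Cpt1a had 1.28 ± 0.33 (adjusted p = 0.0507), although its 6 food-free libraries, at 1205 to 1981 CPM, did not overlap the 6 of the food phase, at 408 to 974. Angptl4 had 1.66 ± 0.45 in NTI (adjusted p = 0.0586) and Acadl 0.70 ± 0.21 (adjusted p = 0.0819). In CAE, where 1.94% of genes were called, no member passed the test: Cpt1a had 0.60 ± 0.21 (adjusted p = 0.158), Bdh1 0.59 ± 0.26 (adjusted p = 0.254) and Angptl4 0.82 ± 0.37 (adjusted p = 0.263). Without the second WT liver of ZT0, the one that stood apart, Angptl4 in CAE reached 1.43 (adjusted p = 0.0277), and without the first WT liver of ZT4 Bdh1 reached 0.80 (adjusted p = 0.045). Cpt2 and Acadm had differences of -0.10 to -0.03 and 0.11 to 0.40 over NTI, NAE, CAE and UTE, and none was called.

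These food-phase calls lay near the threshold, while the size and direction of the differences varied less. The call of Cpt1a in NAE was lost when any 1 of 5 of the 24 libraries was left out (log2 difference from 1.05 to 1.42, adjusted p from 0.0136 to 0.0739), and that of Angptl4 in NAE with any 1 of 8 (1.42 to 2.05, adjusted p from 0.0143 to 0.112). In UTE the call of Cpt1a was lost with any 1 of 8 libraries (0.52 to 0.73, adjusted p from 0.0156 to 0.101). That of Angptl4 in UTE was lost with any 1 of 16 (1.08 to 1.71, adjusted p from 0.0215 to 0.155), of which 6 were CryKO libraries, which enter this contrast through the shared estimate of the spread alone.

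In CryKO, whose feeding was not given in the sources used here, the same times were compared. No member passed the test, against 0.126% of genes in NTI, 0.0338% in NAE, 0.00884% in CAE and 0.879% in UTE. Angptl4 had log2 differences of 1.94 in NTI (adjusted p = 0.108), 1.73 in NAE (adjusted p = 0.2), 1.50 ± 0.37 in CAE (adjusted p = 0.356) and 1.40 in UTE (adjusted p = 0.112), and DESeq2 called all 4. The difference between the genotypes in this contrast passed for no member, with 0.296%, 0.27%, 0.053% and 0.256% of genes called in NTI, NAE, CAE and UTE. For Angptl4 it was 0.28 (95% interval -0.94 to 1.50) in NTI, 0.01 (-1.19 to 1.21) in NAE, 0.68 (-0.32 to 1.69) in CAE and -0.10 (-1.20 to 1.01) in UTE. Without the WT liver of ZT0 that stood apart, the value in CAE was 0.07.

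Averaged over the 6 times, Cpt1a, Angptl4 and Acadl were higher in CryKO than in WT, and which of them passed the test depended on the RNA population. Differences of this kind were common: 54.2% of all genes were called in NTI (50.2% higher in CryKO), 18% in NAE (8.85% higher), 37.1% in CAE (18.2% higher) and 49.3% in UTE (23% higher). Of the members, 2 of 6 were called in NTI, 1 of 6 in NAE, 3 of 6 in CAE and 2 of 6 in UTE, all of them higher. This was below the background share of higher genes in NTI and above it in the other populations, in NAE and UTE by less than 1 gene.

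Acadl had the lowest adjusted p of the members. In UTE of WT, Acadl was 94.2 to 190 CPM with a median of 138, and in CryKO 159 to 227 with a median of 194. All 12 CryKO libraries were above the WT median, and the ranges overlapped through the 2 highest WT livers, at 166 and 190. The log2 difference was 0.47 ± 0.07 (1.38-fold, adjusted p = 7.4e-05). In CAE, Acadl was 83.8 to 209 CPM (median 148) in WT and 138 to 247 (median 180) in CryKO, with a difference of 0.39 ± 0.12 (1.31-fold, adjusted p = 0.0175). Its pre-mRNA in NTI was 157 to 414 CPM (median 290) and 276 to 668 (median 404), with a difference of 0.75 ± 0.15 (1.68-fold, adjusted p = 6.4e-04). In NAE, which lies between these steps, the difference was -0.09 ± 0.12 (adjusted p = 0.642).

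Cpt1a was higher in CryKO in the cytoplasm and in unfractionated liver. In CAE, it was 95.6 to 370 CPM with a median of 158 in WT, and 168 to 420 with a median of 250 in CryKO. All 12 CryKO libraries exceeded the WT median, and the difference was 0.64 ± 0.15 on the log2 scale (1.56-fold, adjusted p = 0.00349). UTE gave 0.46 ± 0.11 (1.37-fold, adjusted p = 0.00368). CTE gave 0.77 ± 0.16 (1.71-fold, adjusted p = 8.1e-04), among 42.6% of genes called, and NTE 0.47 ± 0.18 (adjusted p = 0.04), among 49.2%. Cpt1a pre-mRNA in NTI was 408 to 1981 CPM in WT and 747 to 2907 in CryKO, with a difference of 0.48 ± 0.23 that was not called (adjusted p = 0.0968). The CryKO livers of a time were uneven in NTI. Cpt1a was at 858 and 2907 CPM at ZT4, 952 and 2111 at ZT8 and 877 and 2039 at ZT16. Replicate 1 was the lower of each of these pairs, but at ZT0 it was the higher, at 1794 against 753. Cpt2 was lower in replicate 1 of CryKO at every time in NTI, NAE and CAE (172 and 340 CPM at ZT4 in NTI). In UTE this did not hold, with Cpt2 at 140 and 93.6 CPM at ZT0. A difference between the replicate numbers was not tested.

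On the scale set by mRNA counts, Angptl4 was higher in CryKO most of all as pre-mRNA. In NTI it was 33.6 to 673 CPM (median 190) in WT and 82.4 to 1275 (median 454) in CryKO, and 9 of 12 CryKO libraries were above the WT median. The log2 difference was 1.34 ± 0.32 (2.53-fold, adjusted p = 0.00247). The pre-mRNA of the other populations gave 1.21 ± 0.33 in NAI (adjusted p = 0.0405), among 6.09% of genes called, and 1.32 ± 0.29 in UTI (adjusted p = 0.0112), among 12.7%. As mRNA the difference was 1.07 ± 0.31 in NAE (2.1-fold, adjusted p = 0.0255), 0.82 ± 0.26 in CAE (1.76-fold, adjusted p = 0.02) and 0.65 ± 0.28 in UTE, where it was not called (adjusted p = 0.0685). With a scale set by pre-mRNA counts the difference in NTI was 1.01, below that in NAE. The call in NAE was lost when any 1 of 7 libraries was left out (adjusted p from 0.0072 to 0.0595), those in NTI and CAE with none. Without the WT liver of ZT0 that stood apart the difference in CAE was 1.12 (adjusted p = 0.00101), and that in CTE, 0.59 with all libraries (adjusted p = 0.0908), was 0.88 and called (adjusted p = 0.0061).

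Cpt2, Bdh1 and Acadm differed less. Cpt2 was 22.8 to 47.8 CPM (median 42.9) in NTE of WT and 16.1 to 45.6 (median 30.5) in CryKO, where 11 of 12 libraries lay at or below the WT median, and fell by 0.41 on the log2 scale (SE 0.15, adjusted p = 0.0365). In NTI Cpt2 had 0.45 ± 0.19 in the other direction (adjusted p = 0.0518), in CAE 0.26 ± 0.12 (adjusted p = 0.0983) and in UTE 0.04 ± 0.08 (95% interval -0.12 to 0.20). Bdh1 and Acadm were called in none of the 8 kinds of RNA. Their UTE differences were -0.08 (-0.33 to 0.17) for Bdh1 and 0.04 (-0.09 to 0.17) for Acadm, which bounds either change.

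The scale mattered for the size of these differences. The libraries were scaled by TMM factors of their mRNA, and on this scale the median of all genes in NTI was 0.34 higher in CryKO, since pre-mRNA was 76.18 to 81.07% of NT counts there and 71.99 to 78.74% in WT. With factors from pre-mRNA the median was -0.00, Angptl4 had 1.01 (adjusted p = 0.0239) and Acadl 0.41 (adjusted p = 0.0497), and Cpt1a, Cpt2, Bdh1 and Acadm had 0.15, 0.11, 0.03 and -0.02. In CAE, scaling by library size alone raised the median to 0.36 and called all 6 members. Hepatocyte markers moved in the same direction in CAE and NTI. Their sum in CAE was 17775 to 72324 CPM (median 46190) in WT and 48029 to 86287 (median 70761) in CryKO, with 4 of 6 called higher. In NTI it was 19250 to 50029 (median 27476) and 30444 to 85965 (median 57738), also with 4 of 6 higher. In NAE 0 of the 6 were called, and in UTE 2 were higher and 2 lower. Over all genes tested, 50.2% were higher in NTI, 18.2% in CAE and 23% in UTE, and 18% were called in NAE. Lower were 18.8% of all genes in CAE and 26.4% in UTE, the background of these and the following marker counts. In CAE of CryKO, 3 of 5 stellate, 2 of 6 Kupffer, 2 of 2 cholangiocyte and 2 of 5 red blood cell markers tested were lower. In UTE, 2 stellate, 0 Kupffer, 1 cholangiocyte and 1 red blood cell markers were lower, and 1 stellate and 1 Kupffer marker higher. Endothelial markers were higher in UTE of CryKO (6 of 6, median 424 against 316 CPM), but in CAE 1 was higher and 1 lower. The part of these shifts in the members' differences was not tested.

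**Figure D3:**
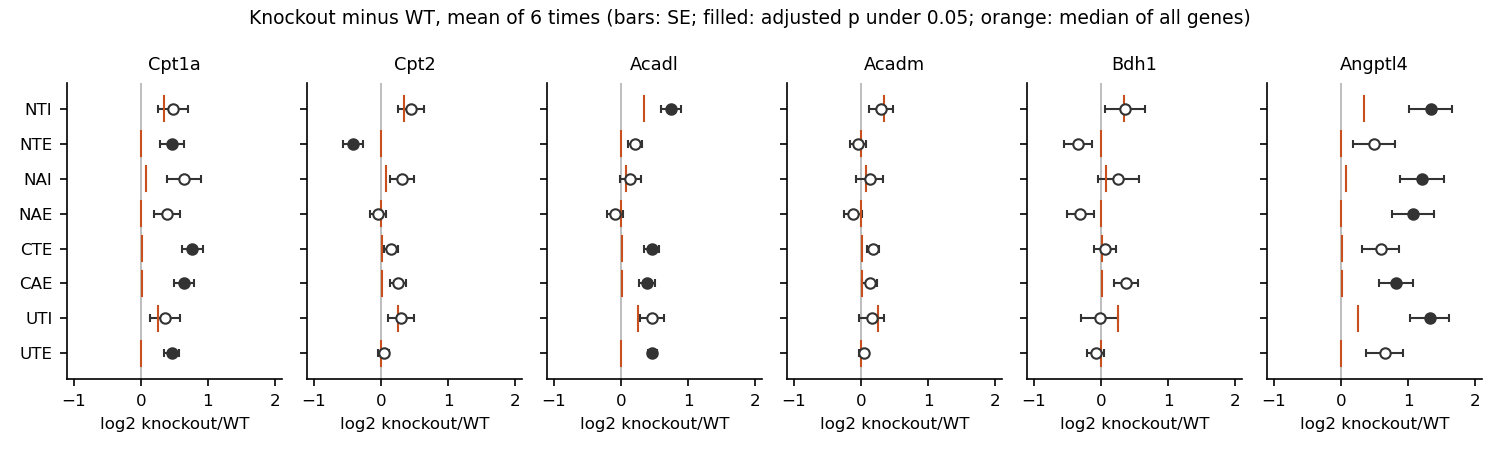
Log2 difference CryKO minus WT of each member in 8 kinds of RNA (bars are the SE, filled points have adjusted p under 0.05, orange ticks are the median of all genes tested). Acadl and Cpt1a are filled in CAE, CTE and UTE, Acadl also in NTI and Cpt1a in NTE, Angptl4 in NTI, NAI, UTI, NAE and CAE and Cpt2 in NTE (lower), and no point of Bdh1 or Acadm is filled.

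Nuclear and cytoplasmic poly(A) mRNA was then compared, with ratios per liver formed between libraries of the same replicate number. The scale was one on which the median gene of WT had a log2 ratio of 0.16 and that of CryKO 0.09. The sides and folds below are thus relative to other genes, not amounts per cell. The paper calibrated nuclear to cytoplasmic amounts with published counts of molecules per cell, which was not done here. The members fell into separate sets. Cpt2, Bdh1, Acadl and Acadm were on the cytoplasmic side in all 12 WT livers. Their log2 ratios NAE to CAE were -2.23 to -1.46 for Cpt2, -2.64 to -1.40 for Bdh1, -2.79 to -1.70 for Acadl and -2.16 to -1.02 for Acadm. The fitted values were -1.77 ± 0.11, -1.95 ± 0.24, -2.19 ± 0.14 and -1.55 ± 0.11, which is 3.4-fold, 3.86-fold, 4.57-fold and 2.92-fold lower in the nucleus (adjusted p of 1.0e-14, 2.3e-08, 3.3e-14 and 9.0e-13 by edgeR). All 4 passed the threshold of 0.01, as did 79.6% of all genes (36.9% on the cytoplasmic side), and Acadl alone of the members was also under -2, as were 13.4% of all genes.

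On this relative scale, Cpt1a and Angptl4 had no such bias. The ratio of Cpt1a was -1.31 to 1.30 (median -0.02) and was below 0 in 6 of 12 WT livers, with a fitted value of 0.05 ± 0.27 (95% interval -0.48 to 0.58, adjusted p = 0.874). It went with time of day: -0.83 and -0.55 at ZT0, 0.24 and 1.30 at ZT4, 0.23 and 0.40 at ZT8, -0.28 and -0.27 at ZT12, -0.61 and -1.31 at ZT16 and 0.41 and 0.65 at ZT20. Both livers had the same sign at each of the 6 times, a description that was not tested. Angptl4 was -2.11 to 0.78 (median 0.17), and its lowest value came from the WT liver of ZT0 that stood apart. Its fitted value was 0.20 ± 0.41 (95% interval -0.61 to 1.01, adjusted p = 0.664).

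**Figure D4:**
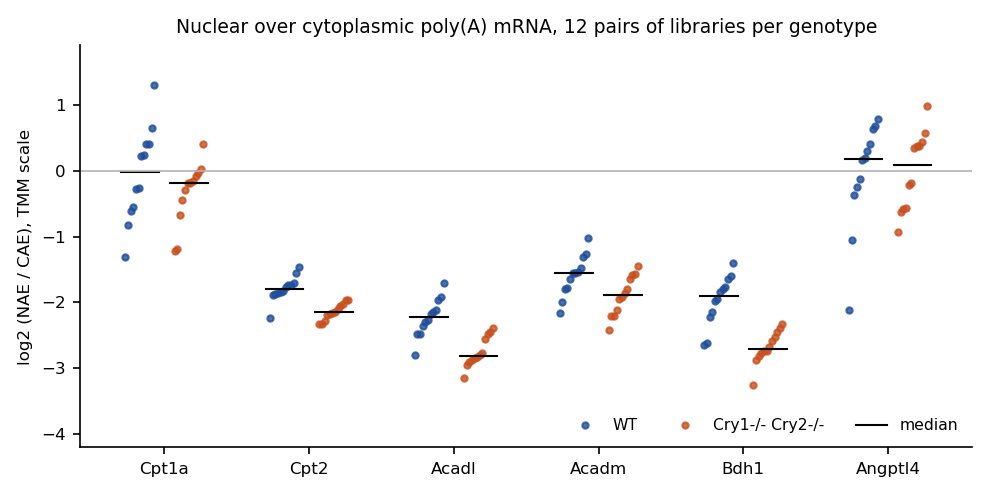
Log2 ratio of NAE to CAE in each liver for each member, 12 WT and 12 CryKO livers, with the median as a black line. Acadl is at or below -1.70 in every liver of either genotype, whereas the WT livers of Cpt1a spread from -1.31 to 1.30.

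In CryKO the same 4 genes were called, among 82.4% of all genes (39.5% on the cytoplasmic side), with -2.14 ± 0.13 for Cpt2, -2.65 ± 0.18 for Bdh1, -2.75 ± 0.12 for Acadl and -1.87 ± 0.14 for Acadm. Cpt1a had -0.28 ± 0.21 (adjusted p = 0.212), which became 0.60 (adjusted p = 0.0062) when library size alone set the scale, as Angptl4 became 1.09 (adjusted p = 0.00937), a scale on which the median of all genes was 1.33 in WT and 0.98 in CryKO. The difference of the ratio between the genotypes was -0.53 ± 0.17 for Acadl (adjusted p = 0.049, and -0.55 with 0.0536 without the WT liver of ZT0 that stood apart), among 7.7% of all genes called (4.31% in this direction). The other 5 members were not called, with Bdh1 at -0.67 ± 0.29 (adjusted p = 0.149) and Cpt2 at -0.35 ± 0.16 (adjusted p = 0.183). With the replicate number as a block, Cpt2, Bdh1 and Acadl were called (3 members, 1636 genes in all against 905). This block links nucleus and cytoplasm by number, and in CryKO the labels do not say that a number is the same mouse.

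The share of pre-mRNA in a gene's own counts gave another view of the members. In NA of WT it was 23.8% (median) for Cpt1a and 49.9 to 60.5% for the other 5. In UT of WT it was 27.7% for Cpt1a, which was the highest of the 6, and 11.3% for Acadm, the lowest. Cytoplasmic poly(A) RNA held little pre-mRNA of any member, with medians of 0.245 to 6.71% in CA of WT.

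The transcripts of Cpt2 differed between nucleus and cytoplasm. Cpt2-201 (5 exons, 2372 bases) and Cpt2-203 (4 exons, 1015 bases) share the ends of the gene, but Cpt2-203 lacks exon 4 of Cpt2-201, a coding exon of 1305 bases at GRCm38 chromosome 4, 107906921 to 107908225. The exon junctions that separate them are shown because, beside reads within exon 4, reads across them are what tells the transcripts apart. In each line, the 20 bases in lower case end the upstream exon and the 20 in capitals begin the downstream exon, 5′ to 3′ on the minus strand, from the GRCm38 transcripts.
Cpt2-201, exons 3 and 4: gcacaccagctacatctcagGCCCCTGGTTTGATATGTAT
Cpt2-201, exons 4 and 5: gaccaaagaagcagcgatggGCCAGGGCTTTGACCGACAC
Cpt2-203, exons 3 and 4: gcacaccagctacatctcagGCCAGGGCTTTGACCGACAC

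Cpt2-203 took 33 and 63.1% of Cpt2 mRNA counts in CA of WT at ZT0, 57.1 and 26.1% at ZT4, 35.2 and 36.1% at ZT8, 69.6 and 35.2% at ZT12, 76.9 and 63.5% at ZT16 and 46.3 and 52.8% at ZT20. In NA of WT it took 0.0 to 5.1% (median 1.3%), so the compartments did not overlap. The difference in usage was -5.16 on the log2 scale, nucleus minus cytoplasm (adjusted p = 1.3e-13, edgeR diffSpliceDGE), among 48.4% of 22371 transcripts called, and it was -5.39 to -4.95 with any 1 liver left out. The other populations did not show the high share: it was 4.6 to 21.6% in CT of WT, 0.0 to 3.3% in UT and 0.0 to 5.8% in NT. The poly(A) and the total libraries were made with different kits, and the part of this in the shares was not tested.

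In CA of CryKO, Cpt2-203 took 15.6 to 42.8% (median 24.3%), against 26.1 to 76.9% (median 49.6%) in WT. The ranges overlapped, and the difference between the genotypes was -0.83 on the log2 scale (adjusted p = 0.0529), just outside the threshold, where 2.04% of transcripts were called and none of the members' was. In CT the genotypes did not overlap, with 4.6 to 21.6% (median 10.6%) in WT and 0.0 to 2.3% (median 0.0%) in CryKO, a difference that was not tested. The CT libraries were also shallower in WT, at 7.07 to 15.26 M counts, than in CryKO, at 16.65 to 23.33 M. Cpt2-206, annotated as a retained intron, went the other way in total RNA, with 0.0 to 7.5% of Cpt2 mRNA counts in NT of WT and 10.6 to 30.9% in CryKO, a difference that was not tested. How many other transcripts separate the genotypes in these ways was not counted.

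**Figure D5:**
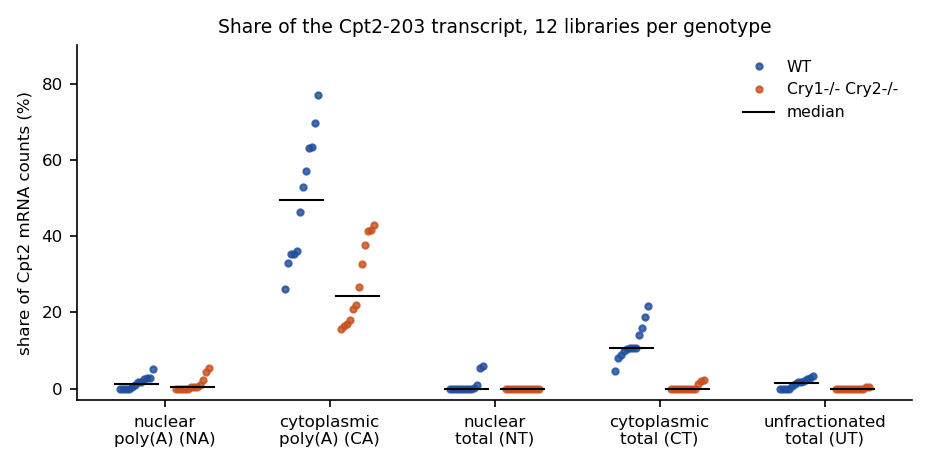
Share of Cpt2 mRNA counts assigned to Cpt2-203 in percent, for the 5 RNA populations and both genotypes, 1 point per library and the median as a black line. CA stands above the rest, with a median of 49.6% in WT and 24.3% in CryKO, against 1.3% and 0.4% in NA.

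Most Angptl4 mRNA was assigned to Angptl4-202, which is annotated as a target of nonsense-mediated decay. Its share in NA of WT was 85.4 to 92% (median 88.9%), and in CA 87.7 to 92.4% (median 91.6%). The difference in usage between the compartments was -0.04 (adjusted p = 0.958). In NT the share was lower, at 41.1 to 66.7% in WT and 26.2 to 58.8% in CryKO. Angptl4-202 is also the shorter transcript, with 1859 bases against 3308 for Angptl4-201, and its 3′ end lies at 33774908 against 33773750. The part of these ends in the shares was not tested. The split of the counts between the 2 transcripts also rests in part on a junction. At this junction Angptl4-202 starts exon 3 at a point 4 bases downstream, on the minus strand of chromosome 17.
Angptl4-201, exons 2 and 3: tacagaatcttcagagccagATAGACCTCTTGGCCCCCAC
Angptl4-202, exons 2 and 3: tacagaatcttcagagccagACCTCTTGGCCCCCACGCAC

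Among the other members, Acadm-202 and Acadm-210, both annotated as retained introns, were used more in the nucleus (adjusted p of 1.6e-21 and 3.6e-35). Acadm-210 had a mean of 0.0 counts in CA of WT, so no fold is given. Cpt1a-201 took 99.9 to 100% of Cpt1a mRNA counts in the WT libraries of every population. Bdh1-201 and Bdh1-203, which start at different promoters, took medians of 58% and 42% in NA of WT and 68.1% and 31.9% in CA, a difference in usage that was not called (-0.20 and 0.33, adjusted p of 0.557 and 0.324).

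Promoters of 5 members (6 windows) were in the RefSeq table for GRCm38.p6, from 250 bases before to 50 after a start site. The hexamer AGGTCA, the core that nuclear receptors such as PPARA and REV-ERB bind, was in those of Cpt1a (bases -94 to -89) and Acadm (-249 to -244), in reverse orientation in both, and in 16.3% of all 32851 windows. TGACG, a core of the cAMP response element, was in that of Acadm (-21 to -17, reverse) and in 20.8% of all. The PPAR response element, a direct repeat of that hexamer with 1 base between (0.0396% of all windows), CACGTG (7.15%), TTATGTAA (0.938%), TAGGTCA (2.61%), TGACGTCA (1.79%) and AGAACA (18.97%), each searched on both strands, were in none of the 6, which says only that these letters are not in these windows. TAGGTCA contains AGGTCA, and TGACGTCA contains TGACG. The Cpt1a and Acadm windows are printed because they hold matched letters, in capitals, while Cpt1a was the member with a called rhythm and Acadm had none.
Cpt1a promoter, chr19:3323051-3323350, plus strand: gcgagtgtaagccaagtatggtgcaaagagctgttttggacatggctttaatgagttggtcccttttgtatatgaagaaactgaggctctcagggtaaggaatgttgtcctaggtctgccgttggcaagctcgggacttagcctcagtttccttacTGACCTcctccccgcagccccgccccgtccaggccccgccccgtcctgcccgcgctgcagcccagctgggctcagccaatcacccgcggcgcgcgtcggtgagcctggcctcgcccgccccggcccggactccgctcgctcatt
Acadm promoter, chr3:153944594-153944893, minus strand: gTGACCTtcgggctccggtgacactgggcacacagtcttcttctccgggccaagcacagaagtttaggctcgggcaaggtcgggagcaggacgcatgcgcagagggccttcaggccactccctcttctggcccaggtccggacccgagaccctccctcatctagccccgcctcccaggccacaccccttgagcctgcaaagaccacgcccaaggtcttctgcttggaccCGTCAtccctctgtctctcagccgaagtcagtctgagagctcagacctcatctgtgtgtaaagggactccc

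The other genes of the pathway were taken from lists drawn up by role, in which all but 3 genes had a row. These lists were chosen with earlier results of these data known, so their counts beside the shares of all genes are descriptions. In the list of the carnitine shuttle and mitochondrial β-oxidation (29 genes, 4 members among them), 20 were higher and 0 lower in NTI of CryKO, 1 higher and 2 lower in NAE, 11 higher and 0 lower in CAE and 16 higher and 1 lower in UTE. Over all genes tested, 50.2%, 8.85%, 18.2% and 23% were higher in the same order. The list medians were 0.57, -0.05, 0.23 and 0.20, beside 0.34, 0.00, 0.02 and -0.00 over all genes tested. Acsl3, which activates long-chain fatty acids, had 0.73 in UTE (adjusted p = 4.2e-05) and Hadhb, a subunit of the trifunctional protein, 0.46 (adjusted p = 2.5e-04), whereas Acads, the short-chain dehydrogenase, had -0.23 (adjusted p = 0.0114). In WT, 21 of the 29 were on the cytoplasmic side and 2 on the nuclear side, with a median of -1.51 beside 0.16 over all genes, and the 2 were Acaca and Acacb (1.37 and 2.02), which make the malonyl-CoA that inhibits CPT1A.

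Of 9 genes of ketone body synthesis and transport, 5 were higher in NTI of CryKO, 0 in NAE, 4 in CAE and 3 in UTE, and none was lower, beside those same shares of all genes. Slc16a7, a monocarboxylate transporter, had 1.02 ± 0.13 in UTE (adjusted p = 2.0e-05).

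Ppara itself was higher as pre-mRNA in NTI of CryKO (0.72 ± 0.24, adjusted p = 0.0196) and as mRNA in CAE (0.66 ± 0.20, adjusted p = 0.0172), not in UTE (0.27 ± 0.11, adjusted p = 0.0529). Of all genes tested in CAE, 18.2% were higher and 18.8% lower, the background of the CAE counts that follow. Of the partners and other targets of PPARA, 14 were higher and 3 lower in CAE, out of 27 tested. The ω-hydroxylases Cyp4a10 and Cyp4a14 had the largest differences of those named, with 4.63 and 5.69 in CAE (adjusted p of 3.6e-07 and 4.3e-06), and Pparg, best known from fat tissue, had -2.27 (adjusted p = 7.0e-08). Of 14 peroxisomal β-oxidation genes, 5 were higher and 0 lower in CAE, among them Ehhadh with 0.85 (adjusted p = 0.00327). Of 11 genes of the pyruvate dehydrogenase complex and its regulators, 3 were higher and 1 lower in CAE, and Pdk1, a kinase of the same family as Pdk4, had 0.87 ± 0.18 (adjusted p = 0.00131). Of 13 ANGPTL and lipase genes, 4 were higher and 3 lower in CAE, and Lpl, the lipase that ANGPTL4 inhibits, had -1.64 ± 0.19 (adjusted p = 1.7e-05). The counts in UTE were different, where 23% of all genes were higher and 26.4% lower. There, 11 PPARA partners and targets were higher and 5 lower, and 5 peroxisomal genes higher and 3 lower. Of the pyruvate dehydrogenase list 6 were higher and 1 lower, and of the ANGPTL and lipase genes 0 were higher and 3 lower.

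Over the day, 4 of the 29 carnitine shuttle and β-oxidation genes had a called rhythm in UTE of WT, where 10.7% of all genes did. Beside Cpt1a, these included Eci2, an enoyl-CoA isomerase, with 1.17 and a peak at ZT 11.2 (adjusted p = 0.00713), and Slc22a5, a carnitine transporter, with 1.24 and a peak at ZT 12.1 (adjusted p = 0.0225). Pnpla2, the first lipase of triglyceride breakdown, was higher in the food-free phase in UTE of WT (0.66 ± 0.12, adjusted p = 0.00528), and Acsl3 was lower (-0.58 ± 0.15, adjusted p = 0.028). Ppard, a receptor of the PPARA family, had the largest difference of the list in that contrast, with -1.49 ± 0.09 (adjusted p = 1.1e-07).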

How the data were processed

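From mouse liver, 120 libraries were sequenced, of poly(A) RNA from nuclei and cytoplasm and of rRNA-depleted RNA from these fractions and from whole tissue. The deposited tables hold estimated counts that the authors made with kallisto 0.46.0, against pre-mRNA and mRNA sequences of GRCm38 transcripts, summed per gene. Rat liver RNA added to the fractions may have been counted in part and its effect was not tested. The estimated counts were rounded, 131 repeated rows were merged, and genes with at least 10 counts in at least 50% of the libraries were tested by edgeR 4.0.16 (quasi-likelihood, limma 3.58.1, R 4.3.3). TMM factors came from the mRNA counts of a library and served its pre-mRNA too. Normalised CPM is counts per M (mega) mRNA counts after TMM. Rhythms were fitted as a 24 h cosine. The difference between genotypes and between the food phases was fitted with 12 groups of genotype and time, and nucleus against cytoplasm with compartment as the variable. Calls had an adjusted p under 0.05 (0.01 for nucleus against cytoplasm, the fold rule being over 2 on the log2 scale) after Benjamini-Hochberg adjustment over all genes. Intervals of 95% are normal ones from the SE. Tables were handled in Python 3.11.15 with pandas 2.3.3 and numpy 2.4.6, and plots made with matplotlib 3.10.9. The fits were tested on simulated data with 200 changed genes. For a rhythm in WT of 1.0 on the log2 scale, trough to peak, 3 of 50 genes were found in CAE, 7 in NTI and 33 in UTE. At 2.0 these were 31, 30 and 44. A difference in rhythm between genotypes of 1.0 in CAE was found for 3 of 50, and a genotype difference of 1.0 in CAE for 43 of 50.

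Samples were grouped by their labels. The labels number the CryKO livers of a time without saying that they are separate mice, and p-values measure the spread between these livers. The main fits have no term for the replicate number, so this spread holds any difference that goes with the number. The paper sampled its livers on consecutive days, and how the numbers relate to the days was not given. The members and gene lists were chosen with earlier results of these data known. The 6 listed genes with a row were tested in each comparison of gene levels, though not every value is printed. Of a list, at most the 3 genes of lowest adjusted p in each direction among those called are named, and Ppara, Cry1 and Cry2 in any case. Some genes that these rules name are not reported here. Genes whose level is most like a member's were the 3 of highest Pearson r over the 24 UT libraries. Same-numbered WT libraries were taken to be of the same mouse, which could not be settled for the second liver of ZT0. Deviations of same-numbered libraries from the time means correlated between NAE and CAE in all 6 times in WT (r from 0.24 to 0.60). In CryKO they did so in 5 of 6 (-0.24 to 0.58). The replicate number was therefore used as a block in an alternative of nucleus against cytoplasm. Between the genotypes a number pairs nothing (r from -0.36 to 0.19 in CAE). Other alternatives were DESeq2 1.42.0, its size factors, library size alone, TMM from pre-mRNA, no filter, times as a factor, and each library or mouse left out. Of the marker lists, adipocyte (5 genes) and muscle (4 genes) had no row, and Kupffer, stellate, cholangiocyte and red blood cell lists are given with the other observations.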

Additional observations from a re-analysis of the deposited data

Results flagged for a closer look

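Acadl differed between the genotypes in its ratio of nuclear to cytoplasmic poly(A) mRNA, which was tested as such. The log2 ratio of NAE to CAE was -2.19 ± 0.14 in WT (12 livers, -2.79 to -1.70) and -2.75 ± 0.12 in CryKO (12 livers, -3.15 to -2.39), and the difference CryKO minus WT was -0.53 ± 0.17 (adjusted p = 0.049, edgeR). The call was lost when any 1 of 20 of the 24 mice was left out (adjusted p from 0.0283 to 0.0916, difference from -0.57 to -0.48), and with DESeq2, with DESeq2 size factors and without the filter on low counts. The direction was the same in each of these. With the replicate number as a block, it was -0.53 with an adjusted p of 0.00357. This block links nucleus and cytoplasm by number, and in CryKO the labels do not say that a number is the same mouse.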

How the results depend on the processing

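Of 972 member values under other settings (times as a factor gives no such value), 938 kept their side of the threshold and 920 of these also their sign, 3 lost and 30 gained a call and 1 reversed. With 1 library or mouse left out, 3354 of 3456 kept their side and 3243 of these also their sign, 64 lost and 38 gained a call. The reversed value was Cpt1a, nucleus minus cytoplasm in CryKO, 0.60 with library size only. Counts of members called moved as follows. DESeq2 gave 1 (Angptl4) for the rhythm in CryKO in NTI, NAE, CAE and UTE and for ZT4 to ZT12 against ZT16 to ZT0 in CryKO in the same 4, 2 for the rhythm in UTE of WT (Cpt1a and Angptl4), and 0 for the compartment by genotype. For the food phase in NTI of WT (0), DESeq2 gave 3, DESeq2 size factors 1, library size only 3 and TMM from pre-mRNA 2. The rhythm in CAE of WT (1) gave 0 with times as a factor. Genotype in CAE (3) gave 6 with library size only. The compartment by genotype (1) gave 0 with DESeq2 size factors, 0 without the filter, 4 with library size only and 3 with the replicate block. The block changed no other call of a count. The cause of these moves was not tested.

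With 1 library or mouse left out, the number of members called ran from 2 to 4 for genotype in NTI, 0 to 1 in NAE, 3 to 4 in CAE and 2 to 3 in UTE. For the food phase in WT it ran from 0 to 2 in NTI, NAE and UTE and 0 to 1 in CAE, and in CryKO from 0 to 1 in NTI, NAE and UTE. It ran from 1 to 2 for the rhythm in CAE and in UTE of WT and from 0 to 1 for the compartment by genotype. It stayed at 4 for nucleus against cytoplasm. The number of transcripts called in usage stayed at 4, of 2 members, in fits by mouse added after seeing the data, as were those of CTE without the second WT liver of ZT0.

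Counts over all genes with DESeq2 were 460 against 63 for the rhythm in WT NTI, 941 against 267 in NAE, 961 against 329 in CAE and 2310 against 1252 in UTE, in CryKO 356, 295, 67 and 391 against 3, 2, 0 and 6, and for the food phase in WT 801, 1253, 501 and 1148 against 360, 616, 220 and 746. Library size only gave 6165 genes for genotype in CAE (90.7% higher, against 49.2%) and 3676 for compartment by genotype (905), and TMM from pre-mRNA 3560 for genotype in NTI (51.2% higher, against 92.7%). CT of WT was the shallowest population (7.07 to 15.26 M counts), and a rhythm that was not called is not shown to be absent.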

Other observations

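The genes whose log2 CPM was most like that of a member across the 24 UT libraries were sought among 9403 genes with a mean of at least 5 CPM. These correlations are descriptions over libraries that share time and genotype, and carry no test. For Acadl the first was Hadhb (r = 0.963), a subunit of the trifunctional protein, before Slc25a13 (0.944) and Hsd17b11 (0.941). For Cpt1a they were Eci2, an enoyl-CoA isomerase (0.911), Kdsr (0.911) and Rapgef4 (0.903). Cpt2 was most like Hsd17b4, the peroxisomal multifunctional protein (0.804), Ech1 (0.800) and Hadha (0.778). Angptl4 was most like Slc25a47, a mitochondrial carrier of liver (0.935), 1810055G02Rik (0.871) and Ppp2r2d (0.870), Bdh1 most like Paqr7 (0.860) and Acsm5 (0.829), and Acadm most like Nln (0.786), Klkb1 (0.781) and Cyp3a25 (0.771). Between members, r was highest for Cpt1a and Angptl4 (0.77) and lowest for Cpt1a and Cpt2 (0.38).

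Bdh1 pre-mRNA counts of the cytoplasm were of another kind than those of the nucleus. Bdh1-204, a processed transcript of 2 exons that spans 786 bases (GRCm38 chromosome 16, 31458116 to 31458901), took 53 to 93.3% (median 90.1%) of them in CA of WT and 65.9 to 94.7% in CT, against 1.0 to 3.9% in NT. Its span lies within the last exon of Bdh1-203 (31456625 to 31458901), so a read of that exon of mRNA can be counted as Bdh1-204 pre-mRNA. Bdh1 at 4.01 to 24.4 CPM in cytoplasmic poly(A) pre-mRNA (CAI) is therefore not read as unspliced Bdh1 here.

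Markers of other cells were present at low levels in UTE of WT and CryKO. Kupffer cell markers summed to a median of 247 CPM in WT and 260 in CryKO, stellate cell markers to 317 and 319, cholangiocyte markers (3 of 5 with a row) to 44.2 and 35.2 and red blood cell markers to 677 and 489. In CAE the medians were 327 and 255 for Kupffer cells, 125 and 112.3 for stellate cells, 26.8 and 12.7 for cholangiocytes and 954 and 637 for red blood cells.

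In the second WT liver of ZT0, clock genes of the cytoplasm lay apart from those of the nucleus and of unfractionated tissue. Cry1 was 5.77 CPM in CAE and 10.7 in CTE, against 26.6 and 39.5 in the first liver, whereas NAE gave 53.3 and 29.9. Dbp was 7.16 CPM in CAE against 0.901, and Angptl4 58.6 CPM in CTE against 9.16. Arntl, which peaks near this time, was 18.3 and 23.6 CPM in CAE.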
